A study of Mus musculus with 7 samples.

Results

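The 9 genes described here build and anchor the acetylcholine receptor of the neuromuscular junction, and several of their proteins are the targets of antibodies in myasthenia gravis. They were listed by name, and all 9 had 1 probe set with 1 gene symbol, out of 19937 genes with such a probe set. Transcripts were measured on 7 Affymetrix arrays. The RNA came from epithelial cells of the thymic medulla that stained strongly for MHC class II, sorted after the thymus was digested with collagenase and dispase. The 4 reconRAG1KO samples, the control named by the series, came from NOD mice with a null allele of RAG1, the recombinase that lymphocytes need. The 3 reconSCID samples came from NOD mice carrying the SCID mutation of DNA-PK, a DNA repair kinase that partners Aire in the medullary epithelium. Recipients of both genotypes were irradiated pups (200 rad) of 2 to 4 days. They were given bone marrow 6 h later, and their thymi were taken 6 to 8 weeks after the transfer. Irradiation and marrow transfer are therefore shared by both groups, so direct effects of a mutation and differences in the response to that treatment cannot be told apart, and neither the donor of the marrow nor the number of thymi per sample is labelled. The titles call the samples biological replicates. The comparison asks how expression in these cells differs between mice with defective DNA-PK and mice without RAG1. Each group carries its own mutation and no sample is free of both, so effects of the 2 mutations cannot be told apart.

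At the junction, nerve terminals release agrin (Agrn), which binds the receptor Lrp4 on the muscle fibre and thereby activates the kinase MuSK (Musk). The scaffold protein rapsyn (Rapsn) then holds acetylcholine receptors in dense clusters. The muscle receptor is a ring of subunits encoded by Chrna1, Chrnb1, Chrnd and either Chrng, in the fetus, or Chrne, in the adult. Medullary epithelial cells display proteins of other tissues to developing T cells, and Chrna1 is among the genes reported to be expressed there under the influence of Aire. The thymus is often abnormal in patients with myasthenia gravis.

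Upstream sequences of the members are shown because muscle-type control of the receptor genes acts there, through E-boxes (CANNTG) read by the myogenic factors and through the N-box (CCGGAA) of genes transcribed beneath the synapse. Of the 9 genes, 6 had an entry in the RefSeq promoter table (GRCm38.p6), and Chrnd, Lrp4 and Rapsn had none. The bases before the outermost annotated start are printed, at most 250, read along the gene's own strand, with matches to either motif on either strand in capitals. They are chr2:73580339-73580588 (minus strand) for Chrna1, chr1:87205561-87205810 (plus) for Chrng, chr11:70619214-70619444 (minus) for Chrne, chr11:69795967-69796187 (minus) for Chrnb1 and chr4:156197534-156197738 (minus) for Agrn. The entry of Musk left 17 bases before its outermost start, with 0 matches, and is not printed.
Chrna1: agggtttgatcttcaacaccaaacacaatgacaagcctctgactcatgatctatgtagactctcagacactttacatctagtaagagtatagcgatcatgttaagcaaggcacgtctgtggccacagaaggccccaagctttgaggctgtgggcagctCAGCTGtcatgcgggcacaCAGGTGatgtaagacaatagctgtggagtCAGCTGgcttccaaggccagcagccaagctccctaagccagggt
Chrng: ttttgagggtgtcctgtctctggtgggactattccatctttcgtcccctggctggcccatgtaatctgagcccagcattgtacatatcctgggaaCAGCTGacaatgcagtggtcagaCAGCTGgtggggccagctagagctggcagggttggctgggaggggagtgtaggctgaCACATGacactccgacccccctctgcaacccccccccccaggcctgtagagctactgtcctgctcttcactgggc
Chrne: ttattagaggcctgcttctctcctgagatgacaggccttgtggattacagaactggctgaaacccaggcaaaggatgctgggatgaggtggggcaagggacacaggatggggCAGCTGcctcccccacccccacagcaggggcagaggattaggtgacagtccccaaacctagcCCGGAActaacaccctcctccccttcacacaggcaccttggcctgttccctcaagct
Chrnb1: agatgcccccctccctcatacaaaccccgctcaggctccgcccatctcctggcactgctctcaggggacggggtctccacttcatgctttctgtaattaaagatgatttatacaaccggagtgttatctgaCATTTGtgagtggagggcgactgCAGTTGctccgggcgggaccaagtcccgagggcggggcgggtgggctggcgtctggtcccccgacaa
Agrn: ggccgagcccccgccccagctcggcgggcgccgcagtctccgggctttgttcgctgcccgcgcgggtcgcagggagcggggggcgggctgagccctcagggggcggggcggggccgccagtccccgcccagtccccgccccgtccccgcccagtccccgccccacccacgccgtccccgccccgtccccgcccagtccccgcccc
Chrna1 had 3 E-boxes, 2 of them with the letters CAGCTG, and Chrng also had 3, of which 2 read CAGCTG. Chrne had 1 CAGCTG E-box and 1 N-box, and Chrnb1 had 2 E-boxes with other central letters. Agrn had 0 matches to either motif in 205 bases. Among 32851 promoters of the table, a window of 250 bases held CANNTG in 66.2%, CAGCTG in 13.0% and CCGGAA in 12.0%, so an E-box of any kind is common, and every CAGCTG is also a CANNTG. The Agrn window was 84.4% G and C, higher than 99.8% of all promoters over the same length. That of Chrna1 was 50.8% G and C, higher than 44.1% of them. A match is a run of letters, not a known site, and the arrays measured no binding.

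A pair of arrays stood apart, which bears on every value that follows. The pair was reconRAG1KO replicate 4 with reconSCID replicate 2, with a correlation of 0.972. Among the remaining 5 arrays correlations were 0.976 to 0.990, and across the division they were 0.922 to 0.947. These 2 arrays are called the smaller array set and the other 5 the larger. No label marks this division, and each set holds both groups, so differences are given over all arrays, from a fit blocked by array set, and within each set. Markers of the labelled cell type were present on every array, beside those of other cells. Aire, the regulator that defines mature medullary epithelium, lay between 9.73 and 11.93 in log2 intensity, the epithelial adhesion gene Epcam between 8.91 and 10.35 and the MHC class II invariant chain gene Cd74 between 13.27 and 13.40, against array medians of 6.47 to 6.59. Cd74 is also high in B cells and dendritic cells. The mean of 8 neutrophil genes reached 9.68 in reconRAG1KO replicate 2, that of 11 B cell genes 8.57 in reconSCID replicate 3 and that of 6 cortical epithelial genes 9.37 in reconRAG1KO replicate 4.

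None of the 9 genes differed between reconSCID and reconRAG1KO past the threshold, an adjusted p under 0.05 by limma with Benjamini-Hochberg adjustment over 34760 probe sets. From the lowest to the highest array the receptor subunit genes and Musk spanned 0.26 to 0.55 on the log2 scale, less than the median of all genes (0.57), and Agrn and Lrp4 spanned 1.48 and 1.06. Agrn and Lrp4 had lower values in reconSCID within the larger array set, and these did not pass either. By limma 0 of the 9 passed over all arrays, in the blocked fit and in the larger set, and 0% of all probe sets did in each of these fits. At an unadjusted p under 0.05 0 of 9 were found over all arrays, against 2.05% of all genes (1.19% lower in reconSCID). With the block it was 1 of 9, Agrn, which was lower, against 12.1% (6.75% lower), and within the larger set Agrn again, against 15.4% (7.78% lower). Of the 9 genes 4 were lower in reconSCID, against 52.4% of all genes, and with the block 5 were lower, against 54.3%, and within the larger set 7, against 53.8%. The count over all arrays changed most without reconSCID replicate 2, which leaves reconRAG1KO replicate 4 with no partner in its set. Then 8 of 9 were lower, and the median difference of all genes was -0.038. With the block as well, 7 were lower. Array weights, which give both arrays of the smaller set little weight (0.16 and 0.12), also gave 7. With these weights 3 of 9 had an unadjusted limma p under 0.05, Agrn and Rapsn lower and Musk higher. The blocked fit found 2 without reconSCID replicate 3 (Agrn and Rapsn) and 2 without reconSCID replicate 1 (Agrn and Chrna1), all lower. The share of all genes was not computed for these settings. Over all 7 arrays the median log2 difference of the 9 was 0.02, against -0.0074 over all genes. With the block it was -0.00014 against -0.014. In bulk samples such as these, fewer cells of a type and less RNA per cell cannot be told apart.

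**Figure D1:**
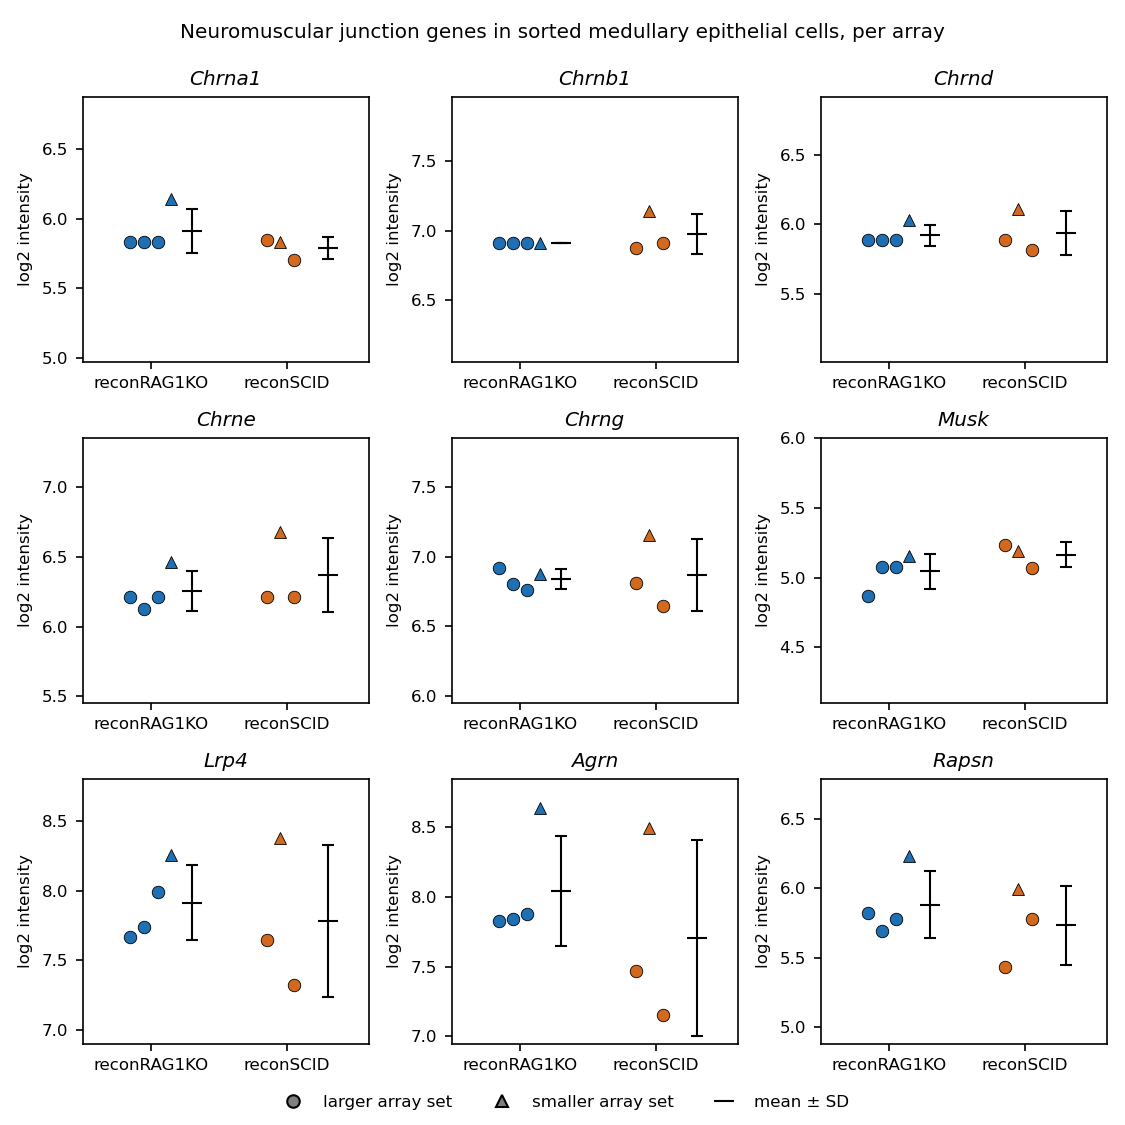
Log2 intensity (vertical axis, the same span in each panel) of the 9 genes on every array, by group. Circles are the larger array set, triangles the smaller, and the bar beside each group is its mean ± SD (n = 4 reconRAG1KO, n = 3 reconSCID). Chrnb1 and Chrnd ran over 0.26 and 0.30, Chrng and Chrne over 0.51 and 0.55, and Agrn ran from 7.15 to 8.64 with both triangles on top.

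Chrna1 encodes the alpha subunit, which binds acetylcholine and carries most of the epitopes seen by antibodies of patients. Its log2 intensity was 5.83, 5.83, 5.83 and 6.14 in reconRAG1KO replicates 1 to 4, and 5.84, 5.83 and 5.70 in reconSCID replicates 1 to 3. The groups overlapped, and reconRAG1KO replicate 4 alone stood well above the rest. Chrna1 averaged 5.91 ± 0.16 (SD, n = 4) and 5.79 ± 0.08 (SD, n = 3), a log2 difference of -0.12 with a 95% interval from -0.38 to 0.15. With the block the difference of Chrna1 was -0.13 (interval from -0.32 to 0.05), and within the larger set it was -0.06 (from -0.22 to 0.10). Without reconRAG1KO replicate 4 the unblocked difference was -0.038. Aire moved over a span of 2.20 on the same arrays, and Chrna1 over 0.44. Chrna1 held only 4 distinct values and lay below the array median throughout, so these spans cannot be compared directly. Whether Chrna1 follows Aire was not tested. Aire itself differed by -0.57 and, with the block, by -0.67 at a limma adjusted p of 0.359.

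Chrnb1, the beta subunit gene, measured exactly 6.91 on 5 of the 7 arrays, among them all of reconRAG1KO. In reconSCID it measured 6.88, 7.14 and 6.91, of which the highest was replicate 2, in the smaller array set. The difference of Chrnb1 was 0.06 with an interval from -0.16 to 0.28, and its SD of 0 in reconRAG1KO (n = 4) comes from the repeated value. Repeated deposited values were common: Chrnb1 had 3 distinct values over 7 arrays, and Chrna1, Chrnd and Chrne had 4 each. At least 2 arrays shared a value in 57.8% of all genes and in 6 of the 9 members, and at least 3 did in 30.1% and in 4 of the 9, all receptor subunits. The spread between arrays of these probe sets is thus known only coarsely, and a fit takes it as small.

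Chrnd, the delta subunit gene, measured 5.88, 5.88, 5.88 and 6.03 in reconRAG1KO and 5.88, 6.11 and 5.81 in reconSCID. The high values were those of the smaller array set, 1 in each group, and the groups overlapped. The difference of Chrnd was 0.02 (95% interval from -0.23 to 0.26), and with the block it was -0.00014 (from -0.14 to 0.14).

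Chrng and Chrne encode the gamma and epsilon subunits, which replace each other as muscle matures. Chrng measured 6.92, 6.81, 6.76 and 6.87 in reconRAG1KO and 6.81, 7.16 and 6.65 in reconSCID. Its groups overlapped, and reconSCID held both the highest and the lowest value. Chrne measured 6.21, 6.13, 6.21 and 6.46 in reconRAG1KO and 6.21, 6.68 and 6.21 in reconSCID, again with both arrays of the smaller set above all others. The differences were 0.03 for Chrng (95% interval from -0.29 to 0.35) and 0.11 for Chrne (from -0.25 to 0.47). With the block they were 0.01 (from -0.24 to 0.26) and 0.08 (from -0.07 to 0.24), so the fetal and the adult subunit genes each had an interval that included 0. Whether they differed from each other was not tested.

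Over the 5 subunit genes, the 95% intervals over all arrays without the block, read as folds, ran from 0.766 (Chrna1) to 1.39 (Chrne). With the block they ran from 0.801 (the lower end for Chrna1) to 1.20 (the upper end for Chrng). Changes of the probe set signal beyond the bounds of a fit were outside the intervals of that fit only. For 4 of the genes the intervals rest on few distinct values. Chrna1 and Chrnd lay below the array median on 7 of 7 arrays and Chrne on all but 1, while Chrnb1 and Chrng lay above it on 7 of 7. No detection call was among the values used, so weak transcript and background signal cannot be told apart for probe sets at such levels.

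Musk, the kinase whose ectodomain is the target of antibodies in a separate form of the disease, lay lowest on the arrays of the 9. Levels of different probe sets are not comparable as transcript amounts. Musk measured 4.87, 5.08, 5.08 and 5.16 in reconRAG1KO and 5.24, 5.19 and 5.07 in reconSCID, below the array median on every array. The groups overlapped, with 2 of the 3 reconSCID values above all of reconRAG1KO. The difference of Musk was 0.12 (95% interval from -0.12 to 0.36), or 0.06 without reconRAG1KO replicate 1, and with the block 0.11 (from -0.10 to 0.32).

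Lrp4, the agrin receptor and itself an antigen in some patients, measured 7.67, 7.74, 7.99 and 8.26 in reconRAG1KO. In reconSCID it measured 7.65, 8.38 and 7.32. The 2 arrays of the smaller set were the highest, and over all arrays the groups overlapped. Among the 5 arrays of the larger set both reconSCID values lay below the 3 reconRAG1KO values, by a narrow gap between 7.65 and 7.67. The difference of Lrp4 was -0.13 (95% interval from -0.78 to 0.52) over all arrays, -0.19 (from -0.54 to 0.16) with the block and -0.32 (from -0.73 to 0.09) within the larger set. Between the 2 arrays of the smaller set it was 0.12, in the opposite direction, and it was 0.10 over all arrays without reconSCID replicate 3.

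Agrn, the gene of the heparan sulfate proteoglycan that starts the cascade and that epithelia also deposit in basement membranes, had the widest range of the 9. It measured 7.82, 7.84, 7.88 and 8.64 in reconRAG1KO and 7.47, 8.50 and 7.15 in reconSCID. The smaller array set was high in both groups, and the remaining reconRAG1KO values lay close together, above both remaining reconSCID values. Agrn averaged 8.05 ± 0.40 (SD, n = 4) and 7.71 ± 0.70 (SD, n = 3). The log2 difference of Agrn was -0.34 ± 0.36 (SE) with an interval from -1.20 to 0.52. In the fit blocked by array set it was -0.42 ± 0.11 (SE), with an interval from -0.70 to -0.14, an unadjusted limma p of 0.0107 and an adjusted p of 0.289. Within the larger set it was -0.54 (from -0.82 to -0.25, limma adjusted p = 0.189), and between the 2 arrays of the smaller set it was -0.14. Leaving out 1 sample moved the unblocked value of Agrn between -0.74, without reconSCID replicate 2, and -0.06, without reconSCID replicate 3, with -0.14 without reconRAG1KO replicate 4 and -0.22 without reconSCID replicate 1. The blocked value ran from -0.54, without reconSCID replicate 2 or reconRAG1KO replicate 4, to -0.28 without reconSCID replicate 3. Agrn and Lrp4 were the 2 of the 9 whose groups did not overlap within the larger set, both lower in reconSCID, as were 18.1% of all genes (31.8% were apart in either direction), and over all arrays 0 of 9 were separate, against 2.77% of all genes.

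Rapsn, the receptor-clustering scaffold, measured 5.82, 5.69, 5.78 and 6.23 in reconRAG1KO and 5.43, 5.99 and 5.78 in reconSCID. The groups overlapped, reconSCID replicate 1 was the lowest array and the smaller set held the 2 highest. The difference of Rapsn was -0.15 (95% interval from -0.59 to 0.29) and with the block -0.18 (from -0.42 to 0.05). It was 0.0028 without reconSCID replicate 1 and -0.030 without reconRAG1KO replicate 4. Exact two-sided permutation tests over all 35 assignments gave p values between 0.2 (Musk) and 0.83 (Chrnd and Chrng) for the 9 genes, where 0.0286 is the smallest possible. With assignments kept within the array sets (20 in all), the exact p of Agrn was 0.05, the smallest possible there, and those of the other 8 ran from 0.2 to 1. Several genes named below, among them Ache, Src and Colq, also reached that smallest value, and others did not. The share of all genes that reach it was not computed, and the sets were drawn from the same arrays.

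**Figure D2:**
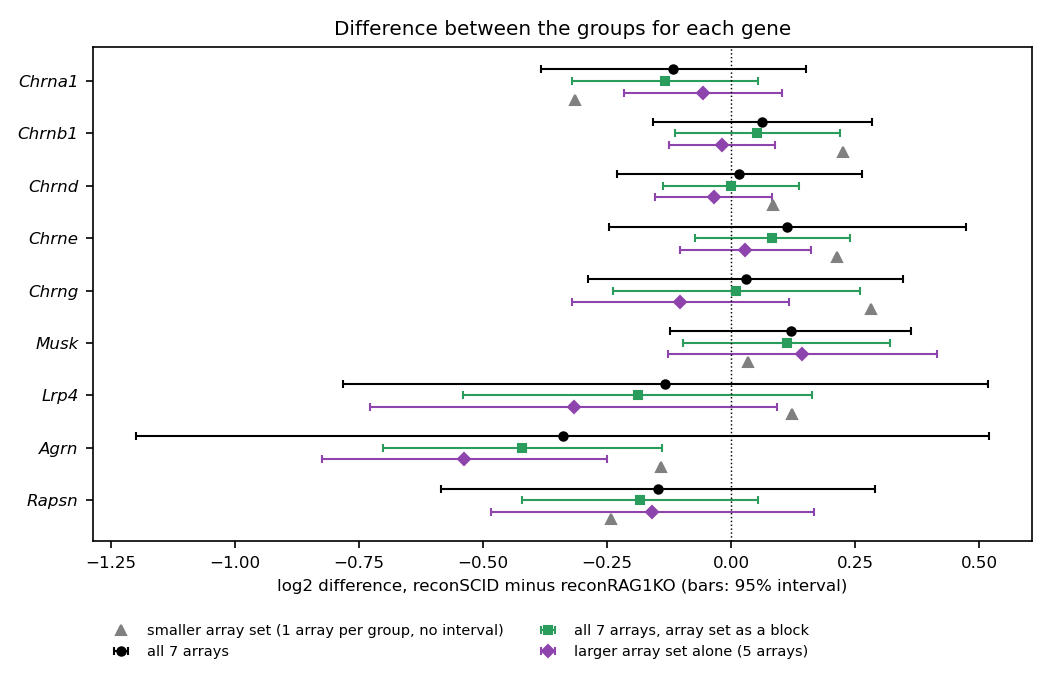
Log2 difference of each gene, reconSCID minus reconRAG1KO (horizontal axis), with 95% intervals for all 7 arrays, for the fit blocked by array set and for the 5 arrays of the larger set. Triangles are the difference between the 2 arrays of the smaller set, which has no interval. The intervals of Agrn left 0 with the block (from -0.70 to -0.14) and within the larger set, and all other intervals included 0.

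The division between the array sets was widest for Agrn and Lrp4 among the 9 genes and narrowest for Musk. The 2 arrays of the smaller set exceeded the mean of the other 5 by 0.93 for Agrn, 0.65 for Lrp4, 0.41 for Rapsn and 0.37 for Chrne. For Chrng, Chrnd, Chrna1, Chrnb1 and Musk the excess was 0.22, 0.20, 0.18, 0.12 and 0.11, against a median of 0.12 over all genes. The sets did not overlap for Agrn, Lrp4, Rapsn, Chrne and Chrnd, all 5 higher in the smaller set, as were 37% of all genes (57.1% were apart in either direction). These values are a description, since the sets were drawn from the same arrays. From the lowest to the highest array Agrn spanned 1.48, more than 93.2% of all genes, and Lrp4 1.06, more than 84.6%. Rapsn spanned 0.80, more than 72.1% of all genes, and Musk 0.37, more than 24.6%. Among the subunits Chrne spanned 0.55, Chrng 0.51, Chrna1 0.44, Chrnd 0.30 and Chrnb1 0.26, more than 47.1%, 41.8%, 34.1%, 16.2% and 12.5% of all genes. Each of these subunits but Chrng holds repeated values.

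Genes common to most epithelia had lower values in reconSCID, as Agrn had in both array sets and Lrp4 in the larger set only. The mean log2 level of 17 such genes, among them the keratin genes Krt8 and Krt18 and the cadherin gene Cdh1, was 8.33, 8.40, 8.64 and 9.10 in reconRAG1KO and 8.09, 8.92 and 7.70 in reconSCID. All 17 of 17 had values lower in reconSCID, with a median difference of -0.34 over all arrays, -0.43 with the block, -0.54 within the larger set and -0.24 within the smaller, and 0 of 17 passed the threshold by limma in the first 3 of these. The smaller set allows no test. By limma at an unadjusted p under 0.05, 0 of 17 were lower over all arrays, against 1.19% of all genes. With the block 11 of 17 were, against 6.75% of all genes. Agrn, at -0.42 with the block and -0.54 within the larger set, lay at nearly the same values. Lrp4 was at -0.19 with the block and -0.32 within the larger set, and at 0.12 within the smaller, opposite to the list. B cell genes went the other way, with list means of 6.65 to 6.87 in reconRAG1KO and 6.90 to 8.57 in reconSCID and 11 of 11 higher. Neutrophil genes ranged from 6.65 to 9.68 in reconRAG1KO and from 6.23 to 7.16 in reconSCID, with 8 of 8 lower. Fibroblast and endothelial genes had list means of 6.76 to 7.74 and 6.83 to 8.21 and were highest on the 2 arrays of the smaller set. The 6 genes of cortical epithelium were also highest there, at 9.37 and 8.31, against 7.65 to 8.02 on the other arrays. Of 17 medullary epithelial genes 14 had lower values in reconSCID, with a median of -0.20 and 0 past the threshold. By limma with the block 6 of them were lower at an unadjusted p under 0.05, against 6.75% of all genes. The part of these cell types in the values of Agrn and Lrp4 was not tested.

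**Figure D3:**
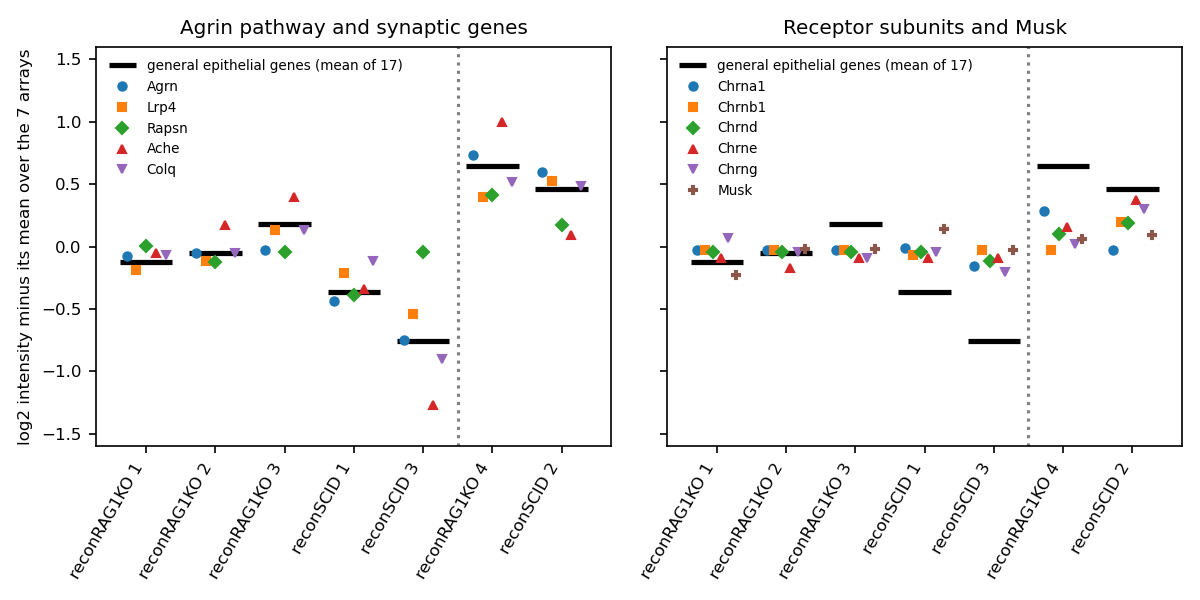
Log2 intensity minus its mean over the 7 arrays (vertical axis) for each array (horizontal axis, the smaller array set right of the dotted line). Black bars are the mean of 17 general epithelial genes, and symbols are single genes. Agrn, Lrp4, Ache and Colq are lowest in reconSCID replicate 3 (7.70 in epithelial level), where the receptor subunits, Musk and Rapsn lie closer to 0. Chrna1, Chrnd and Chrng are also at their lowest on that array (5.70, 5.81 and 6.65), over narrower ranges. In reconSCID replicate 1 (8.09) the picture is mixed. Rapsn is at its lowest there, Colq lies only slightly below its mean and Musk lies above its own.

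Other genes of the synapse were taken from lists of the pathway. Among partners of agrin signalling, 17 of 18 were measured, 0 passed in either direction, and 10 were lower, with a median of -0.06. Dok7, the adaptor that activates MuSK from inside the fibre, differed by 0.04 (0.0013 with the block). The kinase gene Src had values of 8.90 to 9.20 in reconRAG1KO and 8.45 to 8.85 in reconSCID, which did not overlap, with a difference of -0.30 and a limma adjusted p of 1. Nrg1, the gene of the growth factor neuregulin, also had groups apart, at 7.65 to 7.81 and 7.41 to 7.63, with a difference of -0.21. Groups were apart in 2.77% of all genes, and Src and Nrg1 are named because their unadjusted p was among the smallest of the list. The neuregulin receptor gene Erbb3 differed by -0.48, with overlap, and the kinase gene Abl2 by 0.15.

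Of 18 genes of the synaptic matrix and membrane scaffold, 17 were measured, 0 passed, 12 were lower and the median was -0.03. Ache, the gene of the esterase that ends each cholinergic signal, had the largest difference among the synaptic genes outside the 9. It measured 8.63, 8.87, 9.09 and 9.69 in reconRAG1KO and 8.35, 8.78 and 7.42 in reconSCID. The groups overlapped only through reconSCID replicate 2, which lay above reconRAG1KO replicate 1. The difference of Ache was -0.88 ± 0.38 (SE), at an unadjusted limma p of 0.0519 and an adjusted p of 1, and with the block it was -0.96 (95% interval from -1.54 to -0.37) at an adjusted p of 0.272. Within the larger set it was -0.98 and within the smaller -0.91. Colq, whose product tethers that esterase in the cleft, measured 8.45 to 9.03 in reconRAG1KO and 8.40, 9.01 and 7.62 in reconSCID, a difference of -0.31. Lama5, a laminin chain gene, differed by -0.32 and by -0.44 with the block, and its 2 highest arrays, at 8.58 each, were those of the smaller set.

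The nicotinic subunits of neurons were measured in full, and 0 of 11 passed, with 7 lower and a median of -0.10. Chrna5 had the largest difference, -0.58 ± 0.25 (SE), with values of 6.19 to 6.31 in reconRAG1KO and 6.27, 5.62 and 5.12 in reconSCID. Its limma adjusted p was 1, and 0.445 with the block. Chrna2, Chrna6 and Chrna3 differed by -0.14, -0.15 and -0.11. Of 13 further genes whose mutations cause congenital myasthenia or that load and release acetylcholine, 12 were measured, 0 passed and 9 were lower, with a median of -0.07. Dpagt1, an enzyme gene of N-glycosylation on which the receptor depends, differed by 0.16 and by 0.20 with the block (interval from 0.06 to 0.33). Chat, which makes acetylcholine, measured 5.63 to 6.35 in reconRAG1KO and 5.61 to 5.65 in reconSCID, a difference of -0.19 that was -0.01 within the larger set. Alg14 differed by -0.23, and Slc5a7, the choline transporter gene, by 0.16.

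Muscle proteins that patients with thymoma often make antibodies to, and other targets described in the disease, formed a list of 8 genes, which shares Colq, Col13a1, Hspg2, Cttn and Ttn with the lists before or after it. All 8 had lower values in reconSCID, against 52.4% of all genes, with a median of -0.22 (-0.23 with the block), and 0 passed. Within the larger set 7 were lower, against 53.8% of all genes, and the median within the smaller set was -0.10. Ttn, the gene of the giant sarcomere protein titin, differed by -0.26, with values of 7.20 to 7.72 and 7.37, 7.45 and 6.68. Ryr1, the calcium release channel gene, differed by -0.01 and measured 6.24 on 4 of the 7 arrays. Cttn, the cortical actin regulator cortactin, differed by -0.44 (-0.50 with the block, limma adjusted p = 0.370), Col13a1 by -0.23 and Cacna1a by -0.21.

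The mean level of genes that define skeletal muscle cells lay between 6.44 and 6.64 in reconRAG1KO and between 6.27 and 6.67 in reconSCID, and 0 of 24 passed, with 16 lower and a median of -0.06. The myogenic regulator gene Myod1 ranged from 6.57 to 6.96 and Myog from 6.12 to 6.77, near the array medians, and the creatine kinase gene Ckm from 6.90 to 7.57. Myod1 differed by -0.06, Ckm by 0.06 and Myog by -0.29 (-0.47 within the larger set and 0.06 within the smaller). The skeletal actin gene Acta1 measured 7.65 to 7.73 in reconRAG1KO and 7.49 to 7.57 in reconSCID, without overlap, as in 2.77% of all genes. The difference of Acta1 was -0.14 at a limma adjusted p of 1. Actn3, an alpha-actinin gene of fast fibres, lay between 8.64 and 10.16 and differed by -0.64. Myl1, a myosin light chain gene, differed by 0.17.

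**Figure D4:**
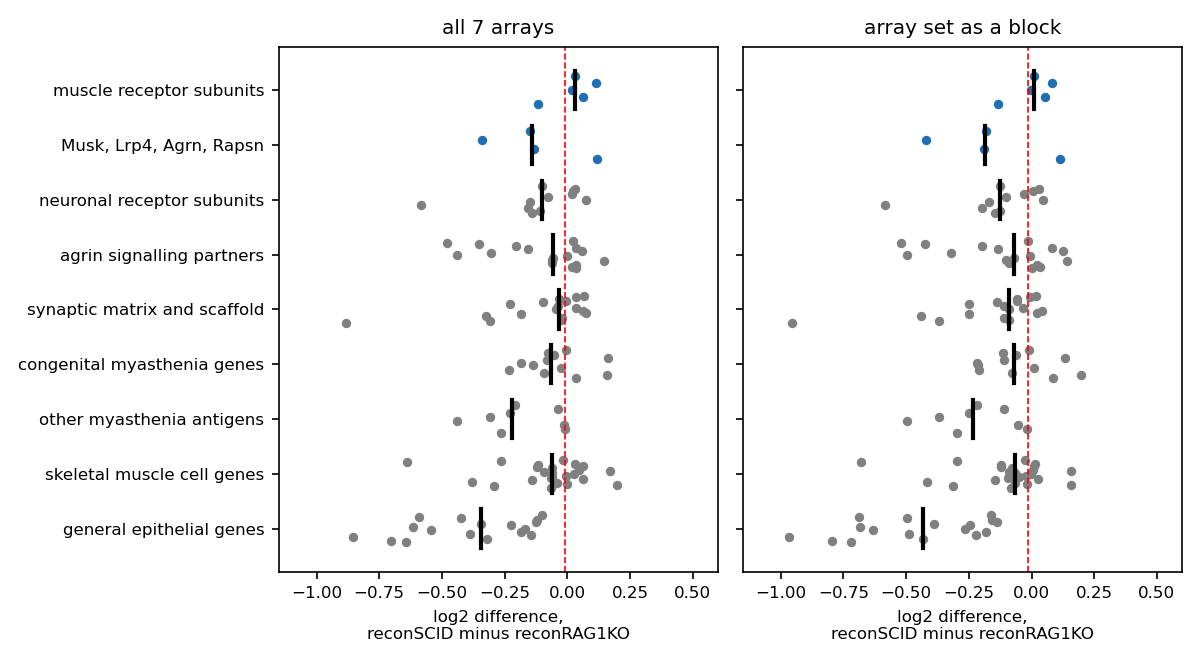
Log2 difference, reconSCID minus reconRAG1KO (horizontal axis), of each gene (points) in 9 lists, over all arrays (left) and blocked by array set (right). Black bars are list medians and the dashed line is the median of all genes. The muscle receptor subunits sit near the median of all genes (list medians of 0.03 and 0.01), while Ache and Agrn lie to the left in their lists.

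Across the 7 arrays, with values centred within each array set, the patterns most like that of Chrna1 were those of Smim7 (Pearson r = 0.996), Nxpe2 (0.994) and Rgl3 (0.992). For Lrp4 they were Cyc1 (0.996), Ptprz1 (0.995) and Hdgf (0.995), and for Musk Srsf2 (0.984), Dhx9 (0.966) and Hdlbp (0.960). These are descriptions over 7 points that share arrays and normalization, and centring makes the 2 arrays of the smaller set mirror each other. Chrna1 has only 4 distinct values, and its centred values are largest on those 2 arrays. Candidates had a mean log2 value of at least 6 and 7 differing deposited values, which Chrna1 and Musk themselves do not meet. Among 6817 candidate genes, 185 reached an r above 0.9 with Chrna1 and 23 with Musk, and of 6816 candidates 357 did with Lrp4.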

How the data were processed

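The deposited table holds one intensity per probe set and array on a linear scale. The authors summarised the probes by a method not given in the sources used here. Array medians lay close together (88.6 to 96.3). The labels state only that biotinylated cRNA was made from 6 µg of total RNA. All 34760 probe sets were kept, log2 was taken with no pseudocount, and the smallest intensity was 4.30. One gene symbol was given for 21640 probe sets, several for 1321 and none for 11799, by the platform annotation used here, and 21553 of the first were found by gene ID in the RefSeq table of GRCm38.p6. Each gene is represented by its probe set with the highest mean.

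The comparison used limma 3.58.1 under R 4.3.3 (lmFit, then eBayes). P-values are two-sided and adjusted over all probe sets by the Benjamini-Hochberg method, with 0.05 as the threshold. The array sets came from hierarchical clustering of array correlations. No test was made over the 9 genes together. The members, lists and settings were chosen with earlier results of these data known. All 9 members are named. From each other list up to 4 genes with the smallest unadjusted p are named, together with Dok7, Ache, Colq, Ttn, Ryr1, Myod1, Myog, Ckm, Acta1, Aire, Epcam and Cd74.

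The test was tried on simulated arrays, made for the comparison of reconSCID with reconRAG1KO and 34760 probe sets in number. Where these carried the array-set difference seen in the data, 50 of 100 genes changed 2-fold and 83 of 100 changed 4-fold were called without the block, and 87 and 98 with it, beside 0 and 13 unchanged probe sets. The simulated noise was independent between probe sets, with a spread taken within each group and array set. The smaller array set holds no repeat within a group and adds nothing to that spread. Apart from the array-set difference, no shift shared by many genes was simulated. The fits may therefore find fewer changed genes in the real data than these counts. The number of arrays limits the precision. Other settings tried were quantile normalization, median centring, leaving out probe sets with a mean log2 value under 6, adding 16 before log2, a robust fit with trend, array weights, blocks by replicate number and by array set, each set alone, averaging a gene's probe sets, and leaving out each sample.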

Additional observations from a re-analysis of the deposited data

Results flagged for a closer look

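Of 38 sets of 4 reconRAG1KO values examined, 8 had 1 array far from the other 3, and in all 8 it was replicate 4, an array of the smaller set, which its correlations had already set apart. Chance gives about 1 in 20 where values are free to differ, a rate that does not hold for repeated deposited values. For Chrna1 and Chrnd the other 3 values were identical, so that any other value of replicate 4 would have stood out, and nothing is read from those 2. Among the members, its log2 intensity was 6.14 for Chrna1, where the other 3 all measured 5.83, 6.03 for Chrnd against 5.88, and 8.64 for Agrn, where the next value was 7.88. Among the other named genes it was highest for Lama5 (8.58), Chat (6.35), Dok7 (7.18) and Ryr1 (6.39) and lowest for Dpagt1 (7.25). Chrnb1, with 4 equal values in this group, could not be examined in this way.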

How the results depend on the processing

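The count of members past the threshold was 0 under all 24 other settings that allow a test, while array weights, which gave reconSCID replicate 2 a weight of 0.12 and replicate 1 one of 4.79, called 57 probe sets, none a member. The median of the 9 ranged from -0.11 to 0.09 over those settings and the smaller set alone. Chrna1, Musk and Agrn kept their direction in every setting run. Not all settings are separate checks. Each member has 1 probe set, so averaging changed no difference, and neither did the robust fit with trend. With the block, leaving out either array of the smaller set gives the differences of the larger set again. Chrnb1 reversed with array weights (-0.027) and within the larger set (-0.019), Chrng likewise (-0.040 and -0.10), Chrnd with quantile normalization (-0.015), array weights (-0.0083), the array-set block (-0.00014) and the larger set (-0.036), and Lrp4 within the smaller set (0.12). With 1 sample left out, with or without that block, the values ran from -0.019 to 0.11 for Chrnb1, from -0.072 to 0.079 for Chrnd (with the block and without reconSCID replicate 1, -0.0087), from -0.041 to 0.19 for Chrne, from -0.11 to 0.14 for Chrng, from -0.43 to 0.10 for Lrp4 and from -0.30 to 0.0028 for Rapsn (lowest without the block -0.28). The cause of these reversals was not tested. The filter on low values left 5 members. Replicate numbers 1 to 3 occur in both groups, and deviations of same-numbered samples from their group means correlated at 0.47, -0.51 and 0.31. These values cannot decide whether the numbers pair the samples. The deviations hold the difference between the array sets, and the samples numbered 2 lie in different sets. With the replicate block, where reconRAG1KO replicate 4 has no partner and adds nothing, 0 members passed and their median was 0.040. Samples with numbers 2 and 3 correlated better with another number than with their own, and number 1 better with its own (0.47 against 0.42). Equal deposited values and signals near the array median limit what can be seen for the receptor subunits.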
